A study of Mus musculus with 4 samples.

Results

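The 9 genes described here are microglial identity genes, chosen by symbol in the authors' table of 46072 genes: P2ry12, Tmem119, Csf1r, Trem2, Tyrobp, Aif1, Siglech, Fcrls and Gpr34. All 9 were found, each under 1 gene ID, and all had a value above 0 in every library. They were measured in 4 RNA-seq libraries of polyadenylated RNA (replicates 1 to 4) from wild-type, untreated mouse brain vasculature. The libraries are labelled as endothelial cells cut out by laser capture, and the title names immuno-laser capture and brain fixed by perfusion. All 4 form 1 group, so each comparison is between genes within the libraries, and no ages, strain or separate animals are given. P-values therefore measure only how these samples spread, and that spread may be technical.

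Microglia are the resident macrophages of the brain parenchyma. They depend on the receptor CSF1R for survival, read their surroundings through surface receptors such as P2RY12 and TREM2, and touch capillaries with their processes. Several receptors, TREM2 among them, have no signalling tail of their own and pass their signal through the adaptor DAP12, which Tyrobp encodes. P2ry12, Tmem119, Siglech, Fcrls and Gpr34 are used to tell microglia from other macrophages, whereas Csf1r, Tyrobp, Trem2 and Aif1 are also active in other macrophages. P2ry12 is also a platelet gene.

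The authors' values are FPKM, a fragment count divided by transcript length and library total, which summed to 448678 to 482882 per library. The number of reads is unknown, and no counting interval can be set. General endothelial genes were present, with the tight junction protein Cldn5 at 19.0 ± 0.698 FPKM and Pecam1, the adhesion molecule CD31, at 4.31 ± 0.570 FPKM (SD, n = 4). Neuronal, oligodendrocyte and astrocyte markers were nevertheless far higher than endothelial ones, with list medians of 117 ± 1.33, 85.6 ± 6.75 and 93.5 ± 10.1 FPKM over 10 genes each, all of them above 1 FPKM. Their part in the levels of the 9 genes was not tested. In such bulk samples fewer cells of a type and less RNA per cell cannot be told apart. At most 4 genes had an identical value above 0 in a pair of libraries, and each library was treated here as 1 sample.

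The promoters of P2ry12, Trem2 and Aif1, a purine receptor, a lipid receptor and a cytoskeletal protein of the same cells, are shown with the cores GAGGAA and AGGAAG marked, which fit the factor PU.1. PU.1, encoded by Spi1, is required for microglia, and Spi1 was measured in these libraries. Each sequence is the 250 bases before the RefSeq start (GRCm38.p6), 5′ to 3′ on the strand of the gene, with capitals for either core on either strand. The positions are chr3:59262986-59263235 on the minus strand for P2ry12, chr17:48346151-48346400 on the plus strand for Trem2 and chr17:35176053-35176302 on the minus strand for Aif1.
P2ry12: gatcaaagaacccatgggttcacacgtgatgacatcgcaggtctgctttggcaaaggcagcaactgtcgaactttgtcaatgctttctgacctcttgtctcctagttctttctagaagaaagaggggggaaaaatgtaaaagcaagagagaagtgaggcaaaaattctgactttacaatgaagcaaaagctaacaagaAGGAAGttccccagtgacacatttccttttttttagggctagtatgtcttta
Trem2: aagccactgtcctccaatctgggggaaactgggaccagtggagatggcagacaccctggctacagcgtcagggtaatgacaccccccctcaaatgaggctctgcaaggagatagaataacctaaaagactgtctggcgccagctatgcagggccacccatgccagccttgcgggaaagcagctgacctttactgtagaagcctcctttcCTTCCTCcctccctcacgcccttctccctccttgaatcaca
Aif1: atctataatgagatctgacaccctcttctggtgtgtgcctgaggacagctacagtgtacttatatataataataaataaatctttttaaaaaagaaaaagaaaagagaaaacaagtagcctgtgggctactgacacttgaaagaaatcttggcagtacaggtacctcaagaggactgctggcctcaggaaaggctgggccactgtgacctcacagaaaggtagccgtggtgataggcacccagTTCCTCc
P2ry12 held AGGAAG from 52 bases before the start, Aif1 held GAGGAA on the opposite strand from 7 bases before it, and Trem2 held both motifs on the opposite strand, sharing bases, from 41 and 40 bases before it. Of the 9 genes, 5 matched the RefSeq promoter table, and Fcrls had 5 matches while Siglech had 0. One or the other motif, which can overlap each other, was found in 4 of these 5 windows and in 39.2% of 32851 promoter windows of the same length, so such a match is common. GAGGAA was in 3 of the 5 windows and 23.3% of all, and AGGAAG in 3 of the 5 and 29.5% of all. In the GENCODE annotation Aif1 extends to 35176068 and Fcrls to 87263738, both on the minus strand and past their RefSeq starts. The matches in the Aif1 and Fcrls windows therefore lie inside the genes as GENCODE draws them. A match describes these letters and shows no binding.

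The signalling unit of TREM2 and DAP12 was measured with the adaptor well above its receptors. Tyrobp (ENSMUSG00000030579, chromosome 7, 30413760 to 30417585, plus strand, GRCm38) had 31.8, 42.1, 36.1 and 31.7 FPKM in replicates 1 to 4, the highest level among the 9 genes in every library. Trem2, a receptor for lipids and lipoproteins (ENSMUSG00000023992, chromosome 17, 48346401 to 48354147, plus strand), had 7.54, 8.03, 9.0 and 9.40 FPKM. Siglech, a sialic acid-binding-type lectin that also signals through DAP12 (ENSMUSG00000051504, chromosome 7, 55768178 to 55778925, plus strand), had 7.41, 11, 9.90 and 11.8 FPKM. Tyrobp did not overlap with either receptor, while the ranges of Trem2 and Siglech overlapped. On the per-length FPKM scale Tyrobp was 4.21 ± 0.777 times Trem2 and 3.61 ± 0.677 times Siglech within a library (SD, n = 4).

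Csf1r, the growth factor receptor that microglia need to survive (ENSMUSG00000024621, chromosome 18, 61100598 to 61132149, plus strand), had 11, 10.9, 7.79 and 9.15 FPKM. P2ry12, the ADP receptor that steers microglial processes (ENSMUSG00000036353, chromosome 3, 59216272 to 59262871, minus strand), had 18.0, 24.3, 19.6 and 20.2 FPKM. Gpr34, a receptor for lysophosphatidylserine (ENSMUSG00000040229, chromosome X, 13632089 to 13640858, plus strand), had 8.84, 9.37, 8.29 and 6.32 FPKM. Among these 3 surface receptors P2ry12 was highest in all 4 libraries, with no overlap, while the ranges of Csf1r and Gpr34 overlapped.

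Aif1 encodes IBA1, the calcium- and actin-binding protein used to stain brain macrophages (ENSMUSG00000024397, chromosome 17, 35170991 to 35176068, minus strand), and had 12.7, 10.9, 12 and 15.5 FPKM. Tmem119, a membrane protein used as a microglial marker (ENSMUSG00000054675, chromosome 5, 113793729 to 113800516, minus strand), had 8.42, 11.4, 9.06 and 7.94 FPKM. Fcrls, an Fc receptor-like scavenger receptor (ENSMUSG00000015852, chromosome 3, 87250758 to 87263738, minus strand), had 6.22, 5.40, 7.30 and 5.92 FPKM. Aif1 was above Fcrls in every library, and the ranges of Aif1 and Tmem119 overlapped.

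**Figure D1:**
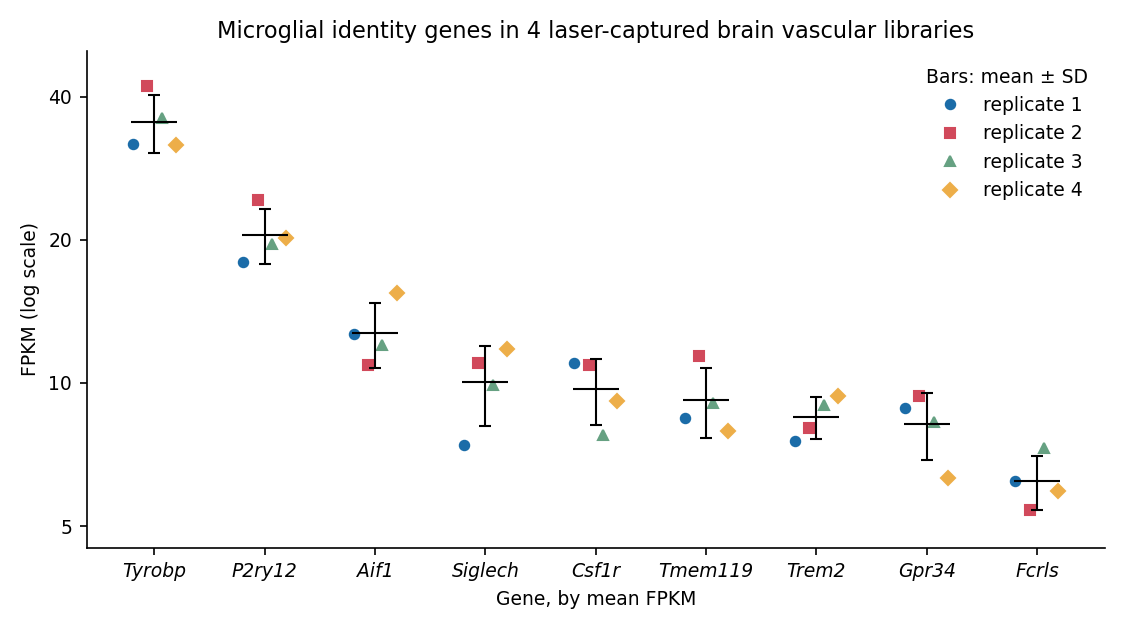
FPKM (log axis) of the 9 microglial identity genes in each of the 4 libraries, ordered by mean, with points for replicates 1 to 4 and bars for the mean ± SD. Tyrobp, at 31.7 to 42.1 FPKM, and P2ry12, at 18.0 to 24.3 FPKM, stand clear of the rest, and Fcrls is lowest by mean at 6.21 FPKM.

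In the order of their means the genes ran Tyrobp (35.4 ± 4.91 FPKM), P2ry12 (20.5 ± 2.72), Aif1 (12.8 ± 1.99), Siglech (10.02 ± 1.91), Csf1r (9.70 ± 1.53), Tmem119 (9.22 ± 1.55), Trem2 (8.49 ± 0.855), Gpr34 (8.20 ± 1.33) and Fcrls (6.21 ± 0.803) (SD, n = 4 each). Tyrobp was 1.73 ± 0.115 times P2ry12, and P2ry12 was 1.65 ± 0.418 times Aif1, both in 4 of 4 libraries with ranges apart. Aif1 exceeded Siglech in 3 of 4 libraries and Gpr34 exceeded Fcrls in 4 of 4, by log2 ratios of 0.36 ± 0.33 and 0.39 ± 0.32 (SD), with overlapping ranges. Among the 5 genes from Siglech to Gpr34, none of the 4 neighbouring pairs differed by more than the spread of its ratio. The largest mean log2 ratio of these pairs was 0.11 ± 0.32 for Tmem119 over Trem2. Ratios of genes further apart among these 5 were not computed, so no common level of the 5 is shown. Without replicate 4 only 4 of the 9 genes kept their place in the order. The longest annotated transcripts run from 597 bases for Tyrobp to 4784 for Trem2, and the sources used here do not give the transcript lengths behind the authors' FPKM.

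The genes varied between libraries about as much as other genes of their level, and no library was highest or lowest for all 9. The coefficient of variation (SD over mean) was 10.1% for Trem2, the lowest, and 19.1% for Siglech, the highest, with a median of 15.6% over the 9 genes. The 5393 genes with means in the same range, 6.21 to 35.4 FPKM, had a median of 14.1% and quartiles of 10.1% and 19.3%, and 4 of the 9 genes lay below that median. Replicate 2 held the highest value of 4 genes (Tyrobp, P2ry12, Tmem119 and Gpr34), replicate 4 that of 3 (Aif1, Siglech and Trem2), replicate 1 that of Csf1r and replicate 3 that of Fcrls. Replicate 2 was also the lowest library for Aif1 and Fcrls. The 9 genes together held 0.0249%, 0.0290%, 0.0253% and 0.0244% of summed FPKM in replicates 1 to 4, while the 16 pan-endothelial genes held 0.0477%, 0.0531%, 0.0454% and 0.0481%. Both shares were highest in replicate 2. The median of 15 other microglial markers was also highest there, at 10.8, 15.1, 11.6 and 12 FPKM in replicates 1 to 4.

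**Figure D2:**
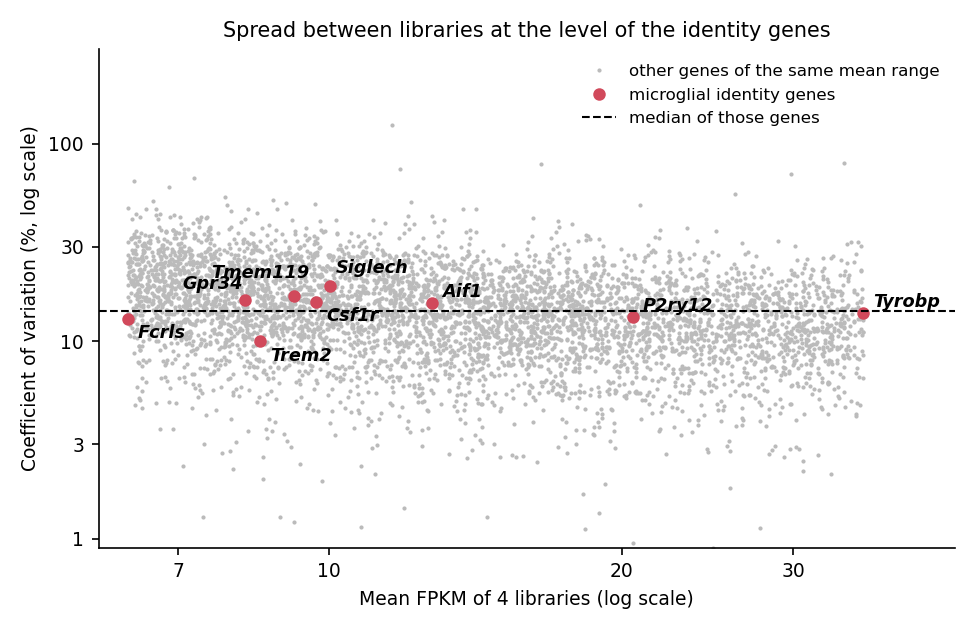
Coefficient of variation over the 4 libraries (percent, log axis) against mean FPKM (log axis) for the 9 microglial identity genes (red) and the other genes between 6.21 and 35.4 FPKM (grey), with the median of those genes dashed at 14.1%. The 9 genes lie between 10.1% and 19.1%, on both sides of the dashed line.

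Each gene was first set against 1 FPKM, a fixed level near the middle of the measured genes. All 9 microglial genes lay above it in 4 of 4 libraries, a call that 47.7% of the 25206 genes tested share (limma, Benjamini-Hochberg adjusted over all genes). None of the 9 lay below it, as 40.1% of all genes did. Their differences on the log2(FPKM + 1) scale ran from 1.84 ± 0.09 (SE) for Fcrls (adjusted p = 1.26e-05) to 4.18 ± 0.08 for Tyrobp (adjusted p = 3.65e-07, limma). The median over the 9 genes was 2.41, beside 0.27 over all genes tested. By mean FPKM the 9 genes ranked between 2151 and 7543 in the whole table.

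The libraries are labelled endothelial, so each gene was next set against the median of 16 pan-endothelial genes of the same library, which was 4.81, 3.88, 4.16 and 3.06 FPKM in replicates 1 to 4. All 9 microglial genes exceeded it in 4 of 4 libraries, a call made for 32.3% of the genes tested, and none fell below it, a call made for 58.8%. The differences ran from 0.54 ± 0.17 (SE) for Fcrls to 2.88 ± 0.15 for Tyrobp on the log2(FPKM + 1) scale, with a median of 1.11 over the 9 genes and -1.03 over all genes. Because all genes of a library are set against the same reference, whose own SD was 0.22, limma's pooled variance makes p too small here. With each gene's own variance, a choice made after seeing the data, the adjusted p ran from 0.00103 for Tyrobp to 0.0210 for Siglech (limma fit, adjusted over all genes), and all 9 calls were kept, beside 30.2% of all genes called above and 56.0% called below by that rule. The call for Fcrls rests on the use of the list's median: against the list's mean its difference was -0.0075 (limma, adjusted p = 0.954). The median of the 9 genes was 9.54 ± 0.917 FPKM, and 2.47 ± 0.563 times the pan-endothelial median within a library (SD, n = 4).

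The pan-endothelial list itself was uneven, so the microglial genes were not above every endothelial gene. Of its 16 genes 13 lay above and 1 below 1 FPKM (0 below with FPKM rescaled as TPM). Tyrobp, at 35.4 ± 4.91 FPKM, lay below Ly6c1, Ly6a and Egfl7, endothelial surface and secreted proteins, which averaged 68.2 ± 4.29, 49.5 ± 4.33 and 40.3 ± 4.67 FPKM. Each of the 9 genes lay above Cdh5, vascular endothelial cadherin, and Erg, an endothelial transcription factor, which averaged 0.878 ± 0.367 and 0.368 ± 0.123 FPKM. With 9.22 ± 1.55 FPKM for Tmem119 and 19.0 ± 0.698 for Cldn5, that microglial marker lay under the claudin in all 4 libraries.

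**Figure D3:**
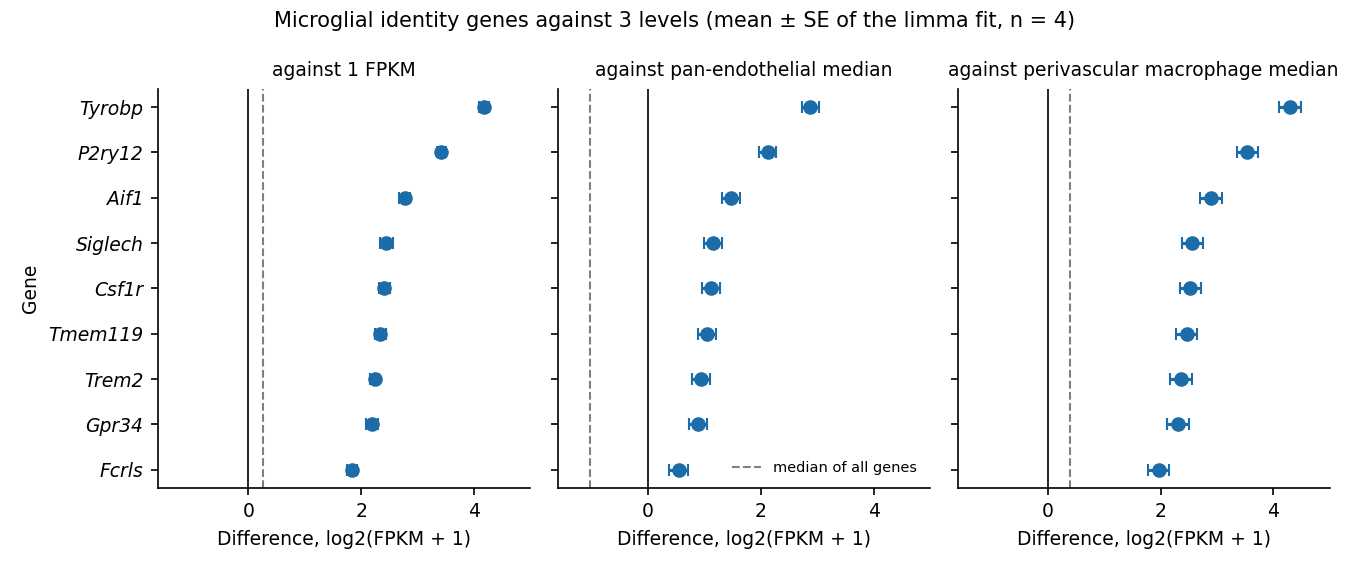
Differences on the log2(FPKM + 1) scale (points, with the SE of the limma fit, n = 4) of the 9 microglial identity genes from 1 FPKM, from the pan-endothelial median and from the perivascular macrophage median of the same library, with the median of all genes dashed. All 9 points lie to the right of 0 in each panel, Fcrls nearest to it at 1.84, 0.54 and 1.96.

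Perivascular macrophages are the other resident macrophages at brain vessels, and most of their markers were measured far below the 9 microglial genes. The list of 10 genes had a median of 1.33, 0.518, 1.06 and 0.584 FPKM in replicates 1 to 4, and the 9 microglial genes summed to 112 to 133 FPKM per library, against 9.65 to 14 FPKM for this list. All 9 microglial genes exceeded the list's median in 4 of 4 libraries, beside 49.7% of all genes tested above and 36.7% below, by 1.96 ± 0.19 (SE) for Fcrls to 4.30 ± 0.20 for Tyrobp on the log2(FPKM + 1) scale. With each gene's own variance the adjusted p ran from 0.00157 to 0.00742 (limma fit, over all genes), a rule that called 46.4% of all genes above and 28.2% below. The SD of this reference over the libraries was 0.30. The median over the 9 genes was 2.53, beside 0.39 over all genes.

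Of these 10 macrophage genes 1 lay above and 3 below 1 FPKM. The count above was 4 with FPKM rescaled as TPM, 3 among genes of at least 0.1 FPKM and 2 without replicate 2 or replicate 3, and the count below was 1 with FPKM rescaled as TPM. Pf4, a chemokine also made by platelets, averaged 4.31 ± 1.20 FPKM, and Stab1 and Cbr2, a scavenger receptor and a carbonyl reductase, averaged 1.89 ± 0.789 and 1.80 ± 0.937. The values of Pf4, 2.94 to 5.84 FPKM, overlapped those of Fcrls, 5.40 to 7.30 FPKM. The scavenger receptor Cd163 averaged 0.274 ± 0.162 FPKM, and Siglec1, the macrophage sialoadhesin, was listed at 0 in replicates 1 and 2 and at 0.0705 and 0.0917 FPKM in replicates 3 and 4. In the same libraries Siglech, of the same lectin family, had 7.41 to 11.8 FPKM. Csf1r, Tyrobp, Trem2 and Aif1, which both cell types use, averaged 8.49 FPKM or more, while Cd163 and Siglec1 were near 0 and Pf4, Stab1 and Cbr2 were not. The part of such macrophages in the levels of these 4 genes was not tested.

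Most markers of other leukocytes were also low. The 9 microglial genes summed to 112 to 133 FPKM per library, against 5.87 to 13.3 FPKM for the 10 leukocyte genes. Of these 10 genes 2 lay above and 7 below 1 FPKM (2 below with FPKM rescaled as TPM), and Ly6g, a neutrophil surface protein, was listed at 0 in all 4 libraries. The 2 above were S100a9 and S100a8, calcium-binding proteins of neutrophils and monocytes, with 4.66 ± 2.22 and 3.50 ± 1.62 FPKM. Nkg7, of cytotoxic lymphocytes, averaged 0.450 ± 0.274 FPKM, and Ms4a1, the B cell antigen CD20, was listed at 0 in 3 libraries and at 0.0525 FPKM in replicate 2.

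**Figure D4:**
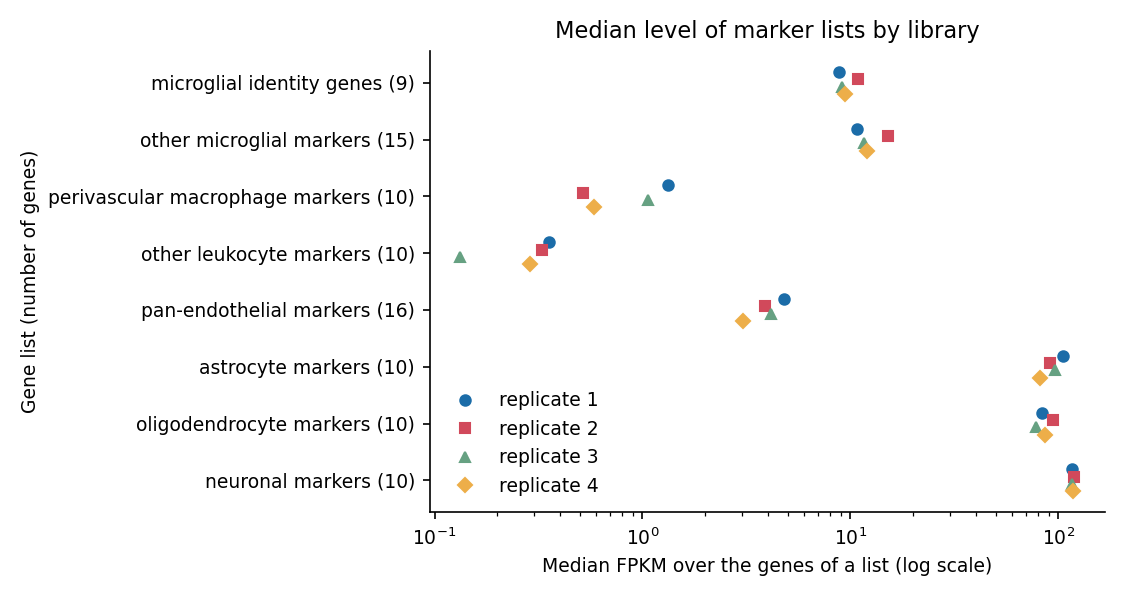
Median FPKM (log axis) over the genes of each marker list in each of the 4 libraries. The 9 microglial identity genes, at 8.84 to 10.9 FPKM, lie above the perivascular macrophage, leukocyte and pan-endothelial lists in every library and below the astrocyte, oligodendrocyte and neuronal lists.

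Other microglial markers covered a wider range than the 9 identity genes. Of 15 such genes 13 lay above 1 FPKM and none below, and 9 lay above and 4 below the pan-endothelial median (8 and 4 with each gene's own variance). The complement subunit C1qb averaged 67.0 ± 7.51 FPKM and the protease cathepsin S, Ctss, 62.5 ± 10.2, both above Tyrobp. At the other end the fructose transporter Slc2a5 averaged 1.23 ± 0.299 FPKM and the lectin Cd33 averaged 1.21 ± 0.613, neither told apart from 1 FPKM (limma, adjusted p = 0.285 and 0.642). The 9 identity genes' median was 0.775 ± 0.0421 times the median of this list within a library (SD, n = 4), and lower in 4 of 4 libraries. The fractalkine receptor Cx3cr1 and the transcription factor Sall1, outside the rule for named genes and chosen after their values were seen, averaged 5.88 ± 1.80 and 1.52 ± 0.277 FPKM.

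Genes that microglia raise in disease and around plaques, known mainly from mouse models, covered a wide range. Of 12 such genes 7 lay above and 2 below 1 FPKM. The count below was 0 without replicate 2 or with FPKM rescaled as TPM, and 1 without replicate 3 or 4, with a pseudocount of 0.01 or with each gene's own variance. Cd63 and Cd9, tetraspanins, and Ctsd, cathepsin D, averaged 379 ± 20.3, 153 ± 9.31 and 256 ± 11.7 FPKM, and all 3 are active in many brain cells. Itgax and Clec7a, the integrin CD11c and the lectin dectin-1, were listed at 0 in all 4 libraries, Clec7a under the 1 of its 2 gene IDs that was read. The other 7 genes lay in between and are outside the naming rule. Spp1, osteopontin, averaged 39.3 ± 7.65 FPKM, the receptor kinase Axl 12.4 ± 2.08, and Lgals3, galectin 3, 10.5 ± 1.08. Lpl, lipoprotein lipase, averaged 1.92 ± 0.288 FPKM, above 1 FPKM but below the pan-endothelial median. Gpnmb, a membrane glycoprotein, averaged 0.588 ± 0.407 FPKM, Cst7, a cystatin, 0.440 ± 0.288 and Ch25h, cholesterol 25-hydroxylase, 0.411 ± 0.285. The part of other brain cells in the levels of these 12 genes was not tested.

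The ligands of the receptors were measured beside them. Both CSF1R ligands lay above 1 FPKM: Il34, interleukin 34, had 12.1, 16.1, 12.7 and 19.8 FPKM and Csf1, colony-stimulating factor 1, had 4.83, 3.29, 4.59 and 3.38 FPKM. Csf1r was below Il34 in 4 of 4 libraries, at 0.665 ± 0.186 times its level, and above Csf1 in 4 of 4, at 2.49 ± 0.675 times its level (SD, n = 4). Il34 exceeded the pan-endothelial median and Csf1 did not pass that test in either direction.

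All 4 genes for ligands and sheddases of TREM2 lay above 1 FPKM. Trem2, at 8.49 ± 0.855 FPKM, was far below Apoe, apolipoprotein E, at 1575 ± 159 FPKM, and Clu, clusterin, at 621 ± 49.5, both lipid carriers that astrocytes also make. Adam10 and Adam17, proteases that cut TREM2 from the surface, averaged 10.4 ± 1.44 and 3.30 ± 0.707 FPKM.

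The other DAP12 partners and relatives listed here were low or listed at 0. Of 6 genes for DAP12 partners and relatives none lay above and 2 lay below 1 FPKM (Hcst turned to 0.26 above it with FPKM rescaled as TPM). The count below was 1 without replicate 1, 2 or 3, with FPKM rescaled as TPM, with a pseudocount of 0.1 or 0.01 and among genes of at least 0.1 FPKM, and 4 when all genes of the table were tested. Trem1, Sirpb1a and Cd300lb were listed at 0 in all 4 libraries, Cd300lb under the 1 of its 2 gene IDs that was read. Clec5a, a myeloid lectin, had 1.45, 2.53, 0.385 and 0.837 FPKM and was not told apart from 1 FPKM (limma, adjusted p = 0.668). Trem3 was listed at 0 in 3 libraries and had 0.505 FPKM in replicate 3. Hcst encodes DAP10, the sister adaptor, and lies 126 bases from Tyrobp on the opposite strand. Tyrobp, at 35.4 ± 4.91 FPKM, was 56.5 ± 16.2 times Hcst, at 0.656 ± 0.148 FPKM (SD, n = 4). The next gene, Nfkbid, an inhibitor-like protein of the NF-kappaB pathway, lies 4146 bases from Tyrobp and averaged 0.414 ± 0.0541 FPKM.

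Genes downstream of DAP12, whose ITAM motif recruits the kinase SYK, were measured below the 9 identity genes. Their list median was 0.838 ± 0.330 FPKM, beside 1.43 ± 0.107 for all genes tested (SD, n = 4). Of 7 such genes 2 lay above and 2 below 1 FPKM, beside 47.7% and 40.1% of all genes tested. All 7 lay below the pan-endothelial median (5 with each gene's own variance), beside 58.8% of all genes (56.0% by that rule). The count below 1 FPKM was 0 with FPKM rescaled as TPM, and 1 without replicate 2 or 3, with a pseudocount of 0.01, with all genes tested or with each gene's own variance. The kinase Lyn and the phosphatase Ptpn6 averaged 2.72 ± 1.05 and 2.54 ± 0.643 FPKM and Inpp5d, the lipid phosphatase SHIP1, 1.42 ± 0.291. Syk itself averaged 0.484 ± 0.303 FPKM and the adaptor Card9 0.402 ± 0.175.

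Myeloid transcription factors were measured below the 9 identity genes. Their list median was 1.60 ± 0.185 FPKM, beside 1.43 ± 0.107 for all genes tested (SD, n = 4). Of 6 genes 4 lay above and 1 below 1 FPKM, beside 47.7% and 40.1% of all genes tested. None exceeded the pan-endothelial median, as 32.3% of all genes did. The count above 1 FPKM rests on all 4 libraries: it was 1 without replicate 2, and 2 without replicate 1, 3 or 4. The count below was 0 among genes of at least 0.1 FPKM. Irf5 averaged 2.03 ± 0.827 FPKM and Spi1, which encodes PU.1, 1.97 ± 0.498, while Cebpa averaged 1.03 ± 0.432 and Runx1 0.0491 ± 0.0493. The TGF-beta axis, which maintains microglial identity, had 3 of 5 genes above and none below 1 FPKM, and 5 of 5 above with FPKM rescaled as TPM. Its receptors Tgfbr2 and Tgfbr1 averaged 3.68 ± 0.932 and 3.61 ± 1.39 FPKM, the signal transducer Smad3 2.92 ± 0.769, the anchor Nrros 1.70 ± 0.944 and the ligand Tgfb1 0.890 ± 0.296. Endothelial and other brain cells use these TGF-beta genes too.

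**Figure D5:**
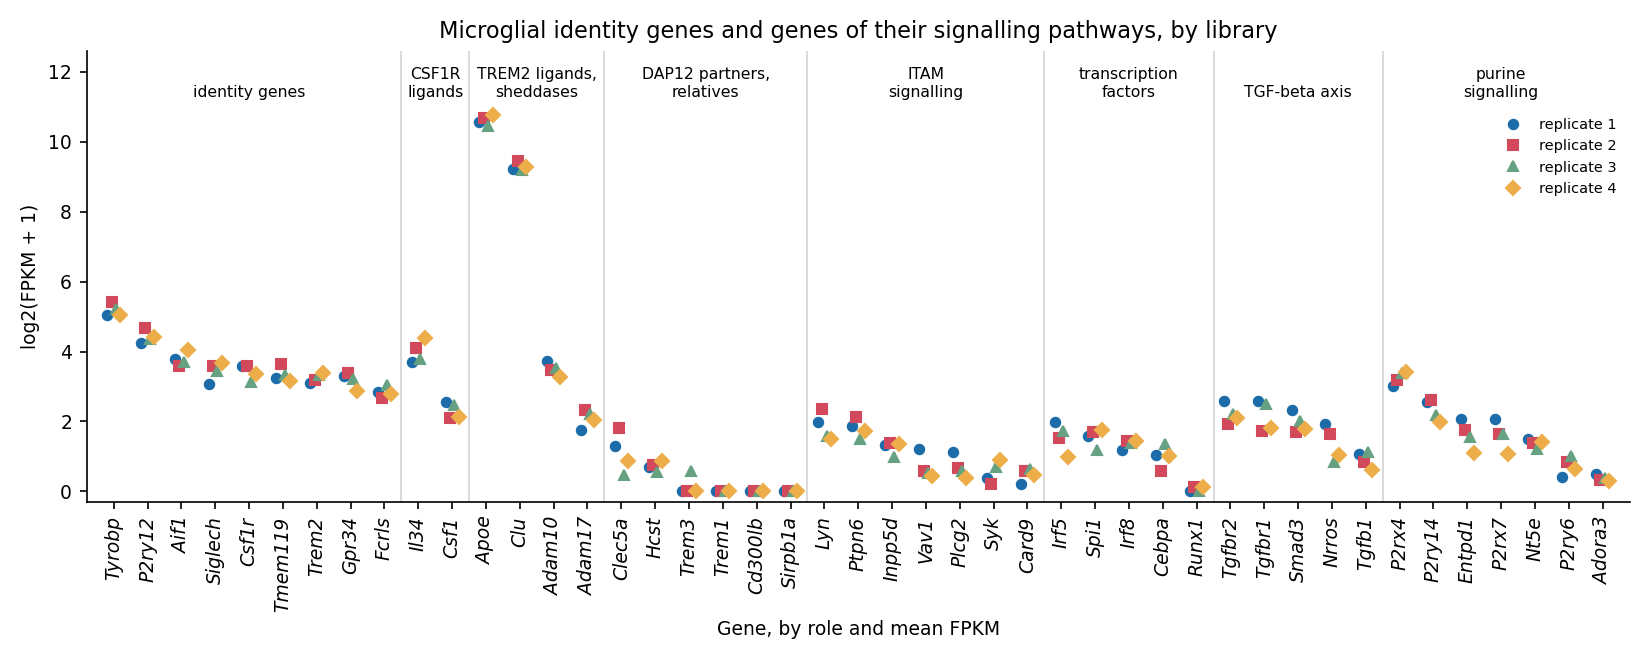
Level, as log2(FPKM + 1), of the 9 microglial identity genes and of genes of their signalling pathways in each of the 4 libraries (points), grouped by role. Trem1, Cd300lb and Sirpb1a sit at 0, the transcription factors and ITAM genes shown lie under the identity genes, and Apoe and Clu lie far above them.

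The relatives of the purine and lipid receptors differed among themselves. Of 7 purine signalling genes 5 lay above and 1 below 1 FPKM. The count above was 2 without replicate 1 or replicate 2, and 3 without replicate 3 or with each gene's own variance. The ATP-gated channel P2rx4 averaged 8.57 ± 1.20 FPKM, P2ry14, a receptor for nucleotide sugars, 4.14 ± 1.07, and the ectonucleotidase Entpd1, which breaks down ATP, 2.16 ± 0.854. P2ry6 and Adora3, receptors for UDP and adenosine, averaged 0.675 ± 0.287 and 0.302 ± 0.0773 FPKM. P2ry12 was 4.63 ± 1.38 times P2ry13, its neighbour in the receptor family, within a library (SD, n = 4), a pair chosen after their values were seen.

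Of 5 genes for lysophosphatidylserine receptors and enzymes 2 lay above and 2 below 1 FPKM (1 below with FPKM rescaled as TPM or among genes of at least 0.1 FPKM). Gpr34 had 6.32 to 9.37 FPKM, while P2ry10 was listed at 0 in 3 libraries and at 0.0515 FPKM in replicate 3, and Gpr174 was listed at 0 in all 4. The lipases Abhd12 and Abhd16a, active in neurons and other cells, averaged 145 ± 17.0 and 46.4 ± 4.83 FPKM, and Pla1a 0.432 ± 0.211.

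Siglech and Fcrls were measured far above most of their relatives. Siglech averaged 10.02 FPKM, while all 4 Siglec relatives (Siglece, Siglecf, Siglecg and Cd22) lay below 1 FPKM, at means of 0.220, 0.116, 0.0117 and 0.0734 FPKM, of which 2 pass a filter of 0.1 FPKM. Of 4 relatives of Fcrls and Aif1 1 lay above and 2 below 1 FPKM, of which Fcrlb turned to 0.12 above it with FPKM rescaled as TPM. The count below was also 1 without replicate 2, 3 or 4, with a pseudocount of 0.1 or 0.01, among genes of at least 0.1 FPKM and with each gene's own variance. Fcrls had 5.40 to 7.30 FPKM, while Fcrlb averaged 0.569 ± 0.223 FPKM, Fcrl1 was listed at 0 in 3 libraries and at 0.116 FPKM in replicate 3, and Fcrl5 was listed at 0 in all 4. Aif1 averaged 12.8 ± 1.99 FPKM, against 5.65 ± 1.78 for Aif1l, the IBA1-like protein of other cell types.

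Of the 9 genes 3 share their position with a longer gene on the opposite strand. The labels give no strand setting, so it is unknown whether reads of such partners were told apart by strand. P2ry12 lies inside Med12l, a Mediator subunit gene, with 9 exonic bases shared, and P2ry12 averaged 20.5 ± 2.72 FPKM against 0.899 ± 0.388 for Med12l. Gpr34 lies inside Cask, which encodes a synaptic scaffold kinase and averaged 3.85 ± 0.513 FPKM, with 0 exonic bases shared. Gpr34 was 2.18 ± 0.518 times Cask within a library (SD, n = 4). Csf1r overlaps the end of Hmgxb3 with 873 exonic bases, 15.1% of its annotated exonic bases, and Csf1r averaged 9.70 ± 1.53 FPKM against 3.20 ± 1.44 for Hmgxb3. The part of such reads in these values was not tested. No other gene had a transcript that matched one of the 9 at 95% identity or more over 50% of its length.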

How the data were processed

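The authors deposited 1 table of FPKM for 4 mouse libraries, with 1 column per library and 0 columns left out here. Per the labels' protocols, RNA from laser-captured cells was extracted with a Zymo Research kit, and libraries were made from enriched mRNA with random priming. HISAT2 2.2.1, StringTie 2.2.1, SAMtools, bcl2fastq 2.20 and the build GRCm38 are listed in the submitters' processing notes. The sources used here give no roles for them, no annotation release or strand setting, and no treatment of multiply matched reads. FPKM divides by the mapped total, so a few very high genes lower every other value.

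Values were analysed as log2(FPKM + 1). limma 3.58.1 (R 4.3.3) was run with its trend option as a moderated, 2-sided test on the 25206 genes above 0 in any library, and p-values were adjusted over all of them by Benjamini-Hochberg (threshold 0.05). Genes were tested against 1 FPKM and, within library, against the median of 16 pan-endothelial or 10 perivascular macrophage genes. The fit without its trend option was run on simulated independent noise, for the comparison with 1 FPKM only. That run does not test the trend option or the comparisons with a within-library reference. The 9 genes and the 18 other lists (143 genes) were chosen with earlier results of these data known, so no list was tested as a set. The genes named by rule are the 9, up to 3 highest and 2 lowest of each list, genes overlapping the 9, their nearest protein-coding gene within 5000 bases, Cldn5 and Pecam1. Trem1 and others said to be outside the rule were chosen after their values were seen. Some genes that the rule names are not reported here. Positions came from GENCODE M21 (GRCm38), copies from BLAST+ 2.17.0 and promoters from RefSeq. Alternatives covered the pseudocount, filter, scaling, variance model, reference summary and each library left out. Figures used matplotlib 3.10.9.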

Additional observations from a re-analysis of the deposited data

Results flagged for a closer look

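Of 109 values examined (each reported gene above 0 in any library, list medians and the share of summed FPKM), 9 had a library that stood apart from the other 3, and none belonged to the 9 identity genes. Chance alone marks about 1 in 20 such values, and several of these genes were listed at 0 in the other 3 libraries. Those were Ms4a1, at 0.0525 FPKM in replicate 2, and Trem3, P2ry10 and Fcrl1, at 0.505, 0.0515 and 0.116 FPKM in replicate 3. The median of the DAP12 partners and relatives, 0.192 FPKM in replicate 3 and 0 elsewhere, rests on Trem3. The median of the Siglec relatives was 0.279 FPKM in replicate 2. Inpp5d was low in replicate 3 at 0.985 FPKM, Fcrlb in replicate 1 at 0.235 FPKM and Nfkbid in replicate 4 at 0.334 FPKM.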

How the results depend on the processing

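The counts of identity genes above each of the 3 levels were 9 under every alternative except the pan-endothelial mean, where it was 8. Over 315 single results of the 9 genes, 314 kept their direction and their side of the threshold, and 1 turned, Fcrls against the pan-endothelial mean (-0.0075, limma adjusted p = 0.954). Against the same mean, Pf4 (-0.47), S100a9 (-0.44), Csf1 (-0.54), P2ry14 (-0.51), Aif1l (-0.16) and Pecam1 (-0.45) also turned. With FPKM rescaled to a fixed sum, the median of all genes against 1 FPKM was 0.99 and not 0.27. Hcst (0.26), Cebpa (0.64), Tgfb1 (0.52) and Fcrlb (0.12) then turned, and 12 listed genes lay below 1 FPKM, not 27. Testing genes of at least 0.1 FPKM, or all genes of the table, gave 5197 or 30135 genes below 1 FPKM (10104 in the main fit), 9737 or 35797 below the pan-endothelial median (14823) and 4005 or 30015 below the macrophage median (9246), since these choices remove or add low genes. Listed genes below the macrophage median numbered 21, but 12 with the 0.1 FPKM filter, 10 with each gene's own variance and 11 to 23 with a library left out; the cause was not tested. The share held by the 9 genes was 0.0259%, 0.0290% without mitochondrial genes in the sum and 0.0389% without the 100 highest. Without 1 library, 4 to 7 of the 9 genes kept their rank. No paired analysis was possible because the series has 1 group. Depth is unknown, which limits statements on genes listed at 0.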
